A study of Mus musculus with 15 samples.

Results

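The genes described here encode actins, the proteins that bind, move or cross-link actin filaments, and established targets of the transcription factors SRF and YAP. They were taken by gene symbol from a table of transcript levels, using the row with the highest mean for each symbol, and 38 of 38 symbols were found among 29072 genes with a symbol. The cells were brown preadipocytes, the precursors of brown fat cells. They came from the stromal-vascular fraction of interscapular brown fat of 129SvEv mice and had been immortalised with the SV40 large T antigen, which all groups share and which binds tumour suppressor proteins. The 15 libraries formed 5 groups of 3: FGF1, FGF8b and FGF9, each at 5.56 nM for 48 h, FGF8b with BAY-876 at 2 µM, a compound that blocks the glucose transporter GLUT1, and control cells with no agent. Heparin at 1 µg/ml accompanied the FGFs in the series text, whereas only the FGF9 samples carry it in their labels, and neither heparin nor the time is stated for control cells. Whether the line is 1 clone, and whether replicates were separate cultures, is not stated. P-values therefore measure the spread between these libraries, which may be technical.

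Actin filaments carry the contractile force of a cell when bundled with myosin and tropomyosin into stress fibres, which end at focal adhesions. SRF binds a DNA element called the CArG box, and its coactivators of the MRTF family are held back by unpolymerised actin. YAP and its relative TAZ act on genes through TEAD factors and respond to cell shape and tension. In fat precursors, an extensive actin cytoskeleton with active MRTF and YAP is known to go with the undifferentiated state.

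The deposited levels name no unit and are taken as RPKM, reads scaled to the length of the transcript and the depth of the library. Depths inferred from the steps of low values were 27.004 to 42.644 M reads. Libraries of a group correlated at 0.9913 to 0.9967 on the log2 scale across genes. All 10 of 10 preadipocyte and fibroblast markers reached 1 RPKM in at least 1 group, and their summed level was 3221 to 3328 RPKM in FGF1 libraries, 1648 to 1829.9 RPKM in FGF8b libraries, 1649 to 1801 RPKM in FGF9 libraries, 207 to 232 RPKM in FGF8b plus BAY-876 libraries and 3351 to 3822 RPKM in control libraries. Of markers of other cells rich in contractile genes, 8 of 12 skeletal muscle genes, among them Myod1, Myog and Ckm, were below 0.1 RPKM in every group, as were 3 of 9 smooth muscle and pericyte genes, Kcnj8, Abcc9 and Myocd. The summed smooth muscle and pericyte markers were 11.4 to 13.8 RPKM in FGF1 libraries, 9.57 to 12.7 RPKM in FGF8b libraries, 9.47 to 12.8 RPKM in FGF9 libraries, 6.87 to 8.54 RPKM in FGF8b plus BAY-876 libraries and 4.004 to 6.24 RPKM in control libraries. In bulk libraries, fewer cells of a type and less RNA per cell cannot be told apart, and the part of these markers in the results on contractile genes was not tested.

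Promoter windows of 300 bases, 250 before and 50 after the annotated start, were taken from RefSeq on GRCm38.p6 for 33 of the 38 genes, with 39 windows in all. Actb, Actg2, Ctgf, Myh11 and Tagln had no entry. The 250 bases before the start are shown for 5 genes that carry much of the results: Acta2 and Myl9, contractile genes that fell with FGF8b, Fhl2, which fell with them, and the YAP targets Cyr61 and Ankrd1, which moved in opposite directions. Capitals mark a CArG box in Myl9 and Fhl2 and the TEAD motif, GGAATG or CATTCC on the other strand, in Acta2, Cyr61 and Ankrd1.
Acta2, chr19:34255374-34255623, minus strand: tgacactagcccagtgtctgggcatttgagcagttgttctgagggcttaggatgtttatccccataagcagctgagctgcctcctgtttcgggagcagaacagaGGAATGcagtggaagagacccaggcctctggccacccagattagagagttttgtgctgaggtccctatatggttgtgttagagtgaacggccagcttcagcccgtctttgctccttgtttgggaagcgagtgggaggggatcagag
Myl9, chr2:156775214-156775463, plus strand: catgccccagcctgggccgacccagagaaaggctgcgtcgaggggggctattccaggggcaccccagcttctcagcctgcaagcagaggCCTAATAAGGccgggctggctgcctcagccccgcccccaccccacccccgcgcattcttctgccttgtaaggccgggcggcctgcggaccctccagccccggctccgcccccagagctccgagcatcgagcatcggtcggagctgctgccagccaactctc
Fhl2, chr1:43163962-43164211, minus strand: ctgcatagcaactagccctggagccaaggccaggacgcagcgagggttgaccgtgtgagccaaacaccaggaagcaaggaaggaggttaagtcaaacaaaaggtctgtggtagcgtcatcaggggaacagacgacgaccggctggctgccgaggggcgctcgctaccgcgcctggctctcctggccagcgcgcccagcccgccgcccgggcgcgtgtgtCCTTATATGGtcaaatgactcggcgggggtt
Cyr61, chr3:145649986-145650235, minus strand: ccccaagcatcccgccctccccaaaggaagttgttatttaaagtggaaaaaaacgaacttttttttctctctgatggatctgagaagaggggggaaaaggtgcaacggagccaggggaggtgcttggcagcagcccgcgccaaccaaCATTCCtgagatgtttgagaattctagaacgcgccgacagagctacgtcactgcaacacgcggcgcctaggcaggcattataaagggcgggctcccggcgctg
Ankrd1, chr19:36119845-36120094, minus strand: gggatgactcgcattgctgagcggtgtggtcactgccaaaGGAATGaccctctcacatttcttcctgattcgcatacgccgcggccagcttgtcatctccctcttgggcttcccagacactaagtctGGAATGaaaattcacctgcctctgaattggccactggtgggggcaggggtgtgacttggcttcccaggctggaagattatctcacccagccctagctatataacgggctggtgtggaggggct
A CArG box was taken strictly as CCWWWWWWGG, with W for A or T, and searched on both strands. It lay in 9 of 39 member windows (23.1%), against 1.63% of 32851 RefSeq windows and 1.31% of the 13136 windows of genes tested. The 8 genes with one were Acta1, Actg1, Cnn2, Fhl1, Fhl2, Myl9, Srf and Vcl, and Srf had boxes starting 82 and 62 bases before its start. Looser forms, with a G or C among the W bases, were not counted. The Acta2 window shown holds such forms, ccctatatgg and ccttgtttgg, so its absence here does not mean that it lacks a CArG-like element. The TEAD motif lay in 14 member windows (35.9%), against 14.7% of RefSeq windows and 12.4% of those of genes tested, and Ankrd1 had it at 210 and 123 bases before its start. No CArG box overlapped a TEAD motif in the member windows. The list includes known SRF and YAP targets, so these shares describe it, and a match does not show binding in these cells.

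Of the 38 genes, 36 had at least 0.5 RPKM in at least 3 libraries and were tested with limma on log2(RPKM + 0.5) among 13869 genes, with a Benjamini-Hochberg adjusted p of at most 0.05 as the threshold. Each log2 change is given with its standard error (SE) on that scale, which understates the change of low genes. By the moderated F-test, 35 of the 36 differed somewhere among the 5 groups, where 86.7% of all genes tested were called. Myh11, a smooth muscle myosin heavy chain, was not called (limma adjusted p = 4.83e-01).

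Most of the genes were higher with FGF1, while more of them were lower than higher with FGF8b and with FGF9, with the largest falls in Tagln, Myl9, Cyr61 and Acta2. With FGF1 against control cells, 25 of 36 genes were higher and 2 lower, where 34.4% of all genes tested were called, 19.3% higher and 15.1% lower. The median log2 change was 0.41 for the 36 genes and 0.02 for all genes tested. With FGF8b against control cells, 6 of 36 genes were higher and 17 lower, where 64.4% of all genes tested were called, 37.8% higher and 26.6% lower, and the medians were -0.14 for the 36 genes and 0.08 for all genes. With FGF9 against control cells, 8 of 36 genes were higher and 16 lower, where 65.7% of all genes tested were called, 38.7% higher and 27% lower, and the medians were -0.08 for the 36 genes and 0.10 for all genes. The 3 comparisons share the control libraries. Of the 5 smooth muscle and pericyte markers tested, none of them a member, 1 was higher and 0 lower with FGF1, 4 were higher and 1 lower with FGF8b, and 4 were higher and 1 lower with FGF9. The 10 preadipocyte and fibroblast markers, whose sums are given above, went both ways. Of these, 2 were higher and 5 lower with FGF1, 3 higher and 7 lower with FGF8b, and 2 higher and 7 lower with FGF9.

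**Figure D1:**
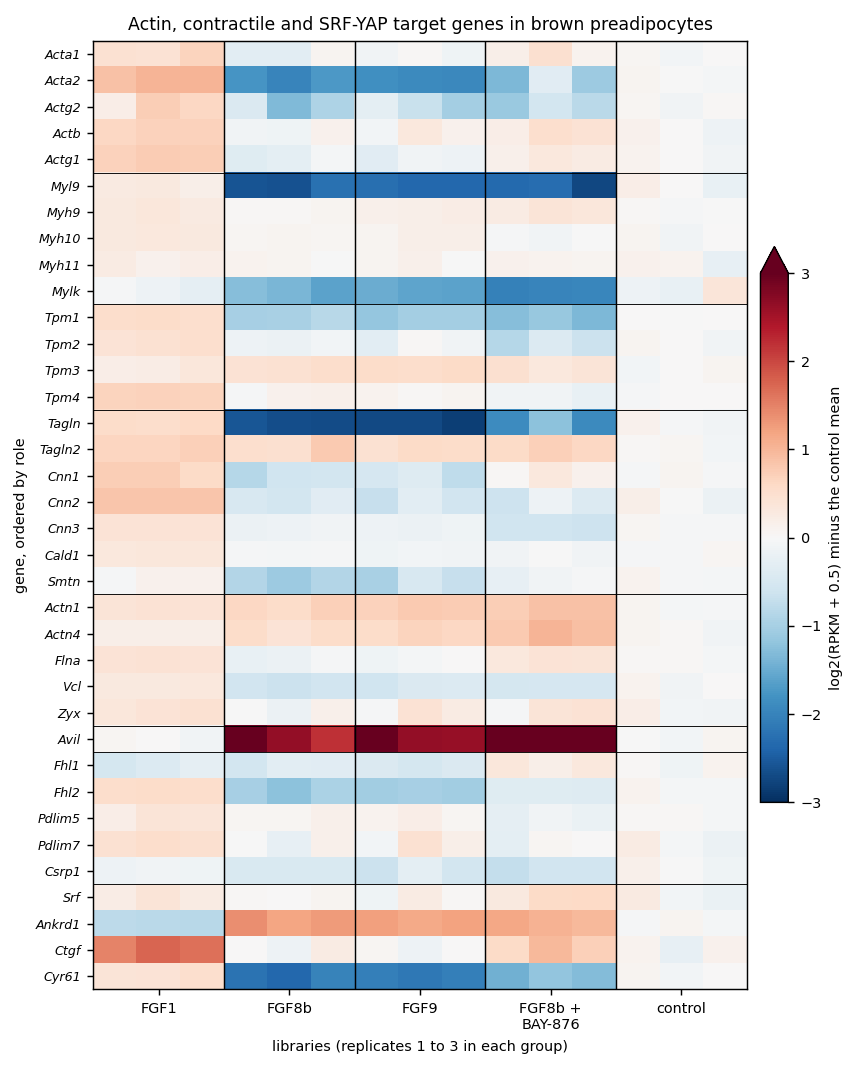
Heat map of the 36 tested genes (rows, by role) in 15 libraries (columns, 3 per group), where colour is log2(RPKM + 0.5) minus the control mean on a scale from -3 to 3. Tagln, Myl9, Cyr61 and Acta2 are the bluest rows in FGF8b and FGF9 libraries, and Avil in FGF8b plus BAY-876 libraries lies beyond the scale.

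Among the actins, the smooth muscle isoform Acta2, a marker of contractile cells and myofibroblasts, separated the groups most. It had 76.3, 83.8 and 84.1 RPKM in FGF1 libraries, 11.8, 10.1 and 12.0 RPKM in FGF8b libraries, 11.1, 10.6 and 10.3 RPKM in FGF9 libraries, 15.9, 32.2 and 18.9 RPKM in FGF8b plus BAY-876 libraries and 43.8, 40.5 and 39.2 RPKM in control libraries. FGF1 libraries were all above the control libraries, and every library with FGF8b or FGF9 was below them. The log2 change against control was 0.97 ± 0.17 with FGF1, -1.82 ± 0.17 with FGF8b and -1.90 ± 0.17 with FGF9 (limma adjusted p = 2.98e-04, 1.27e-07 and 7.34e-08).

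Actb and Actg1, the cytoplasmic actins that build the filaments of most cells, were the most abundant isoforms. Actg1 averaged 576 ± 13.1 RPKM in FGF1 libraries, 296 ± 33.3 RPKM in FGF8b libraries, 302 ± 24.4 RPKM in FGF9 libraries, 409 ± 21.5 RPKM in FGF8b plus BAY-876 libraries and 347 ± 24.5 RPKM in control libraries (SD, n = 3 each). It rose with FGF1 by 0.73 ± 0.08 and Actb rose by 0.67 ± 0.10 on the log2 scale (limma adjusted p = 3.35e-06 and 1.04e-04). With FGF8b Actg1 fell by 0.23 ± 0.08 (limma adjusted p = 1.88e-02), a call lost in 3 of 23 alternative settings, and the Actb value of -0.04 ± 0.10 did not pass the test. Acta1, the skeletal muscle isoform, rose with FGF1 by 0.52 ± 0.12, and its FGF8b value was -0.19 ± 0.12. Actin coding sequences are nearly identical, so the authors' counting could split reads between isoforms, and the values of single isoforms are uncertain.

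Summed over the 5 actins, the level was 1065 ± 28.8 RPKM in FGF1 libraries, 555 ± 58.0 RPKM in FGF8b libraries, 592 ± 61.0 RPKM in FGF9 libraries, 764 ± 65.5 RPKM in FGF8b plus BAY-876 libraries and 645 ± 51.0 RPKM in control libraries (SD, n = 3 each). As a share of that sum, Acta2 made up 7.64 ± 0.21% in FGF1 libraries, 2.04 ± 0.20% in FGF8b libraries, 1.82 ± 0.25% in FGF9 libraries, 2.88 ± 0.89% in FGF8b plus BAY-876 libraries and 6.39 ± 0.19% in control libraries. Actg2, the enteric smooth muscle actin, rested on few reads, 77 in FGF1, 12 in FGF8b, 25 in FGF9, 15 in FGF8b plus BAY-876 and 53 in control over 3 libraries each. Its ratio to control was 0.248 (exact 95% interval 0.120 to 0.469) with FGF8b, and such intervals cover counting error only. The fitted log2 change of -0.89 ± 0.22 with FGF8b (limma adjusted p = 2.40e-03) was -1.83 with a pseudocount of 0.1 and -0.57 with a pseudocount of 1.

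Among the myosin genes, Myl9, a regulatory light chain of smooth muscle and nonmuscle myosin, had 31.6, 32.3 and 29.8 RPKM in FGF1 libraries, 3.91, 3.81 and 5.12 RPKM in FGF8b libraries, 5.08, 4.67 and 4.67 RPKM in FGF9 libraries, 4.78, 4.99 and 3.53 RPKM in FGF8b plus BAY-876 libraries and 29.9, 26.5 and 22.5 RPKM in control libraries. With its FGF1 and control libraries overlapping, every library with FGF8b or FGF9 was below every FGF1 and control library. The log2 change against control was 0.25 ± 0.13 with FGF1, -2.49 ± 0.13 with FGF8b and -2.33 ± 0.13 with FGF9 (limma adjusted p = 1.42e-01, 1.02e-10 and 2.00e-10).

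Mylk, the kinase that phosphorylates the light chain and so switches on contraction, had 2.77, 2.51 and 2.30 RPKM in FGF1 libraries, 0.878, 0.803 and 0.599 RPKM in FGF8b libraries, 0.685, 0.627 and 0.595 RPKM in FGF9 libraries, 0.317, 0.352 and 0.367 RPKM in FGF8b plus BAY-876 libraries and 2.54, 2.39 and 3.79 RPKM in control libraries. Every library with FGF8b or FGF9 was below every FGF1 and control library, and those with BAY-876 were the lowest. Against control, its log2 change was -0.15 ± 0.13 with FGF1, -1.42 ± 0.13 with FGF8b and -1.56 ± 0.13 with FGF9 (limma adjusted p = 4.23e-01, 1.39e-07 and 4.06e-08). The row used is a clone whose length, 767 bases, was inferred from the read steps. At that length its reads were 172 in FGF1, 56 in FGF8b, 58 in FGF9, 29 in FGF8b plus BAY-876 and 235 in control. The RefSeq row gave -0.91 for FGF8b. The nonmuscle heavy chains Myh9 and Myh10, motors of stress fibres and cell division, rose with FGF1 by 0.30 ± 0.05 and 0.30 ± 0.05, and their FGF8b values of 0.04 ± 0.05 and 0.07 ± 0.05 did not pass the test.

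The tropomyosins, rod proteins that lie along the actin filament and set which proteins bind it, did not move together. Tpm1 had 344, 350.1 and 336 RPKM in FGF1 libraries, 120.3, 122 and 134 RPKM in FGF8b libraries, 106, 117 and 117 RPKM in FGF9 libraries, 98.1, 108 and 93.8 RPKM in FGF8b plus BAY-876 libraries and 239, 238 and 240.0 RPKM in control libraries. FGF1 libraries were all above the control libraries, and all others were below them. The log2 change was 0.52 ± 0.06 with FGF1, -0.93 ± 0.06 with FGF8b and -1.08 ± 0.06 with FGF9 (limma adjusted p = 4.88e-06, 1.63e-09 and 2.43e-10). Over its 33 transcript rows at 1 RPKM or more, the log2 change ran from 0.30 to 0.72 with FGF1 and from -1.14 to -0.56 with FGF8b. Tpm3 rose with all 3 FGFs, by 0.26 ± 0.06 with FGF1, 0.47 ± 0.06 with FGF8b and 0.55 ± 0.06 with FGF9, on the row used. Its 25 transcript rows at 1 RPKM or more ran from -0.35 to 0.26 with FGF1, from -0.17 to 0.53 with FGF8b and from 0.26 to 0.64 with FGF9, so that rows of the gene differed in sign with FGF1 and FGF8b. Tpm2 and Tpm4 rose with FGF1, by 0.46 ± 0.10 and 0.67 ± 0.05, and their FGF8b values were -0.13 ± 0.10 and 0.09 ± 0.05.

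Of the genes for proteins that bind thin filaments, Tagln, or SM22, an early smooth muscle gene, had 88.1, 85.8 and 90.7 RPKM in FGF1 libraries, 9.64, 9.04 and 8.83 RPKM in FGF8b libraries, 8.70, 8.66 and 7.97 RPKM in FGF9 libraries, 15.8, 25.3 and 15.4 RPKM in FGF8b plus BAY-876 libraries and 65.8, 58.1 and 55.7 RPKM in control libraries. FGF9 and then FGF8b libraries were the lowest, libraries with BAY-876 lay between them and control libraries, and FGF1 libraries were the highest. Against control, its log2 change was 0.56 ± 0.13 with FGF1, -2.64 ± 0.13 with FGF8b and -2.75 ± 0.13 with FGF9 (limma adjusted p = 3.75e-03, 8.66e-11 and 4.67e-11).

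In GENCODE M21, exons of Tagln overlap those of Pcsk7, a convertase gene on the opposite strand, and whether reads were counted by strand is not given in the sources. Pcsk7 averaged 37.6 ± 0.908 RPKM in FGF1 libraries, 4.22 ± 0.187 RPKM in FGF8b libraries, 3.86 ± 0.325 RPKM in FGF9 libraries, 8.28 ± 2.39 RPKM in FGF8b plus BAY-876 libraries and 25.5 ± 2.17 RPKM in control libraries (SD, n = 3 each). Its group means have the same order as those of Tagln, and without strand the reads of these genes cannot be told apart.

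Cnn1, the calponin of smooth muscle, had 1.52, 1.53 and 1.31 RPKM in FGF1 libraries, 0.178, 0.310 and 0.338 RPKM in FGF8b libraries, 0.365, 0.436 and 0.216 RPKM in FGF9 libraries, 0.762, 1.02 and 0.838 RPKM in FGF8b plus BAY-876 libraries and 0.691, 0.796 and 0.684 RPKM in control libraries. FGF8b and FGF9 libraries were the lowest, FGF1 libraries the highest, and libraries with BAY-876 overlapped control libraries. The reads were 256 in FGF1, 52 in FGF8b, 81 in FGF9, 187 in FGF8b plus BAY-876 and 149 in control, and the ratio to control was 2.02 (exact 95% interval 1.64 to 2.49) with FGF1 and 0.382 (exact 95% interval 0.273 to 0.527) with FGF8b. The fitted log2 changes were 0.68 ± 0.12 and -0.66 ± 0.12 (limma adjusted p = 3.25e-04 and 1.38e-04), and the FGF8b value was -1.16 with a pseudocount of 0.1.

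Smtn, or smoothelin, of contractile smooth muscle, had 9.45, 10.5 and 10.5 RPKM in FGF1 libraries, 5.04, 4.24 and 4.997 RPKM in FGF8b libraries, 4.66, 6.79 and 5.72 RPKM in FGF9 libraries, 7.97, 8.97 and 9.44 RPKM in FGF8b plus BAY-876 libraries and 10.4, 9.38 and 9.16 RPKM in control libraries. FGF8b and FGF9 libraries lay below every FGF1 and control library. The log2 change was 0.07 ± 0.11 with FGF1 and -0.95 ± 0.11 with FGF8b (limma adjusted p = 6.67e-01 and 1.93e-06). Cnn2, a calponin of nonmuscle cells, rose with FGF1 by 0.83 ± 0.12 and fell with FGF8b by 0.45 ± 0.12 on the log2 scale (limma adjusted p = 4.24e-05 and 3.12e-03). Tagln2, the nonmuscle relative of Tagln, rose with all 3 FGFs, by 0.67 ± 0.07 with FGF1, 0.59 ± 0.07 with FGF8b and 0.52 ± 0.07 with FGF9. Cnn3, another calponin, rose with FGF1 by 0.41 ± 0.04 and fell with FGF8b by 0.15 ± 0.04. Cald1, caldesmon, which restrains myosin on actin, rose with FGF1 by 0.33 ± 0.04, and its FGF8b value was -0.05 ± 0.04. The 17 Cald1 transcript rows at 1 RPKM or more went both ways, from -0.21 to 1.014 with FGF1, from -0.87 to 0.21 with FGF8b and from -1.10 to 0.31 with FGF9.

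Lmod1, leiomodin, which nucleates actin filaments in smooth muscle, was below the level needed for the test. Its reads, summed over 3 libraries, were 60 in FGF1, 5 in FGF8b, 14 in FGF9, 17 in FGF8b plus BAY-876 and 65 in control. Its ratio to control was 1.09 (exact 95% interval 0.751 to 1.57) with FGF1 and 0.0841 (exact 95% interval 0.0264 to 0.207) with FGF8b. Des, desmin, the intermediate filament protein of muscle, was not tested either, and its reads were 3 in FGF1, 12 in FGF8b, 17 in FGF9, 3 in FGF8b plus BAY-876 and 3 in control.

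**Figure D2:**
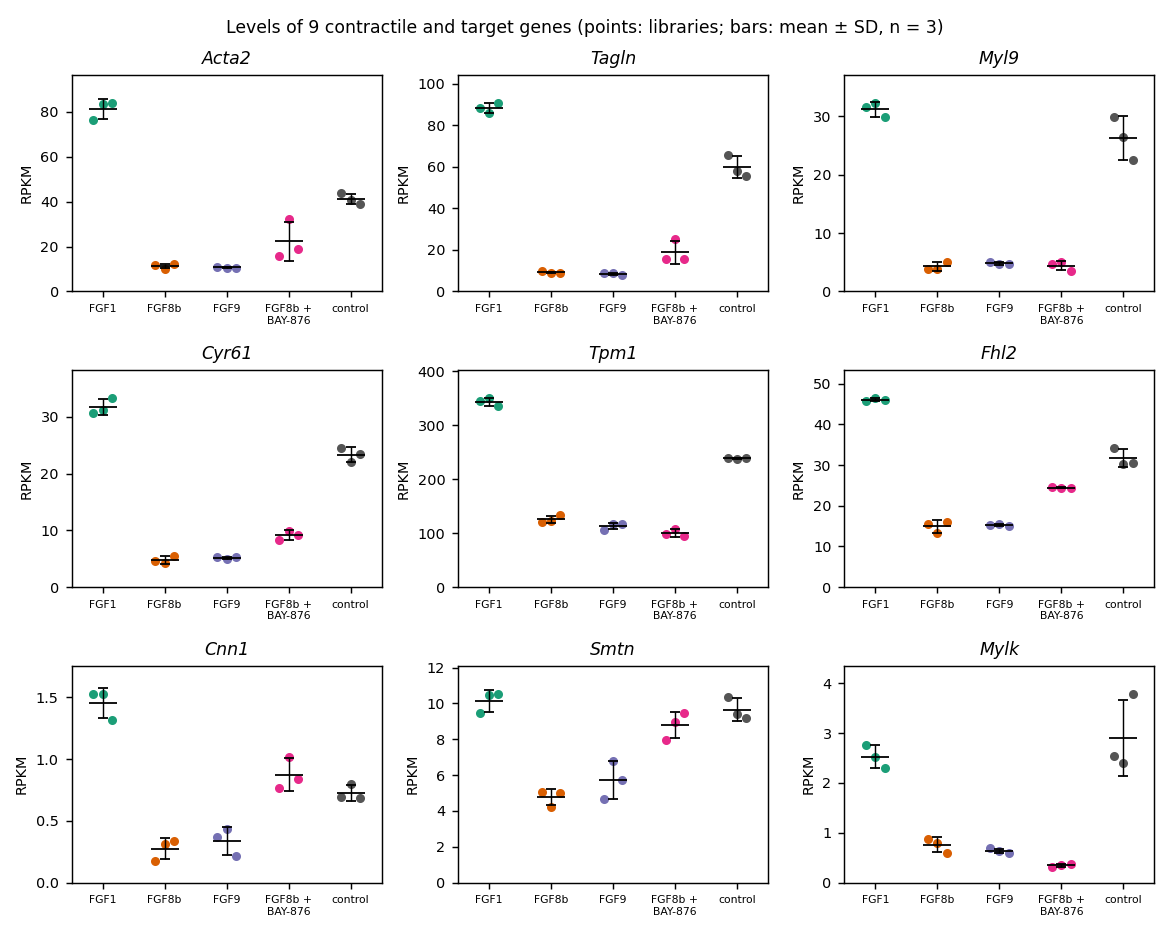
Levels in RPKM of 9 genes by group, with a point for each library and bars for the mean ± SD (n = 3). In every panel the FGF8b and FGF9 libraries lie below the FGF1 and control libraries, and for Acta2, Tagln, Cyr61, Fhl2, Cnn1 and Smtn the FGF8b plus BAY-876 libraries lie above those of FGF8b.

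The cross-linkers and adhesion proteins split. Actn1, a nonmuscle alpha-actinin that bundles filaments, had 59.9, 62.3 and 60.6 RPKM in FGF1 libraries, 70.4, 67.4 and 75.4 RPKM in FGF8b libraries, 73.5, 79.6 and 77.3 RPKM in FGF9 libraries, 76.6, 83.9 and 84.8 RPKM in FGF8b plus BAY-876 libraries and 48.5, 44.0 and 44.7 RPKM in control libraries. No treated library overlapped the control libraries. Against control, its log2 change was 0.41 ± 0.06 with FGF1, 0.63 ± 0.06 with FGF8b and 0.74 ± 0.06 with FGF9 (limma adjusted p = 4.26e-05, 1.19e-07 and 1.60e-08). Actn4, its relative, rose with FGF8b by 0.50 ± 0.07 and with FGF9 by 0.61 ± 0.07, and its FGF1 value of 0.17 ± 0.07 did not pass the test. Vcl, vinculin, which links actin to adhesions, rose with FGF1 by 0.30 ± 0.06 and fell with FGF8b by 0.60 ± 0.06 on the log2 scale. Flna, filamin A, rose with FGF1 by 0.42 ± 0.06 and fell with FGF8b by 0.14 ± 0.06 (limma adjusted p = 1.91e-05 and 3.28e-02), and the FGF8b call was lost in 5 of 23 alternatives. Zyx, zyxin, an adhesion protein that repairs stress fibres, rose with FGF1 by 0.40 ± 0.13 (limma adjusted p = 2.64e-02), a call lost in 5 of 23 alternatives. Exons of Vcl, Actn4 and Zyx overlap those of Ap3m1, Capn12 and Epha1 on the opposite strand in GENCODE M21. These averaged 19.3, 3.66 and 1.24 RPKM in FGF8b libraries and 16.8, 2.88 and 1.78 RPKM in control libraries. Whether reads were counted by strand is not given, and the part of reads on shared exon bases was not tested.

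Avil, advillin, a villin-family protein that binds and bundles actin and is best known from sensory neurons, had 0.135, 0.114 and 0.0627 RPKM in FGF1 libraries, 4.88, 3.30 and 2.27 RPKM in FGF8b libraries, 4.86, 3.28 and 3.26 RPKM in FGF9 libraries, 27.7, 27.5 and 30.2 RPKM in FGF8b plus BAY-876 libraries and 0.106, 0.0780 and 0.148 RPKM in control libraries. FGF1 and control libraries overlapped, FGF8b and FGF9 libraries were all above them, and libraries with BAY-876 were above all others. The ratio of mean RPKM to control was 31.5 with FGF8b and 34.4 with FGF9. Reads were recovered from another Avil transcript row, of 2925 bases, and were 44 in FGF1, 963 in FGF8b, 1247 in FGF9, 8418 in FGF8b plus BAY-876 and 40 in control. On that other row the ratio to control was 26.3 (exact 95% interval 19.2 to 37.1) with FGF8b and 27.3 (exact 95% interval 20.0 to 38.4) with FGF9. The fitted log2 change was 2.65 ± 0.18 with FGF8b and 2.80 ± 0.18 with FGF9 (limma adjusted p = 4.40e-09 and 2.10e-09). With a pseudocount of 0.1 the FGF8b value was 4.04. Exons of Avil overlap those of Tsfm, a mitochondrial translation factor gene on the opposite strand, which averaged 8.04 ± 0.414 RPKM in FGF1 libraries, 13.2 ± 1.61 RPKM in FGF8b libraries, 14.6 ± 0.638 RPKM in FGF9 libraries, 16.6 ± 1.44 RPKM in FGF8b plus BAY-876 libraries and 6.81 ± 0.503 RPKM in control libraries (SD, n = 3 each). Both genes had their highest mean with BAY-876, and without strand the reads on shared exon bases cannot be told apart. The part of Tsfm reads in the Avil levels was not tested.

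**Figure D3:**
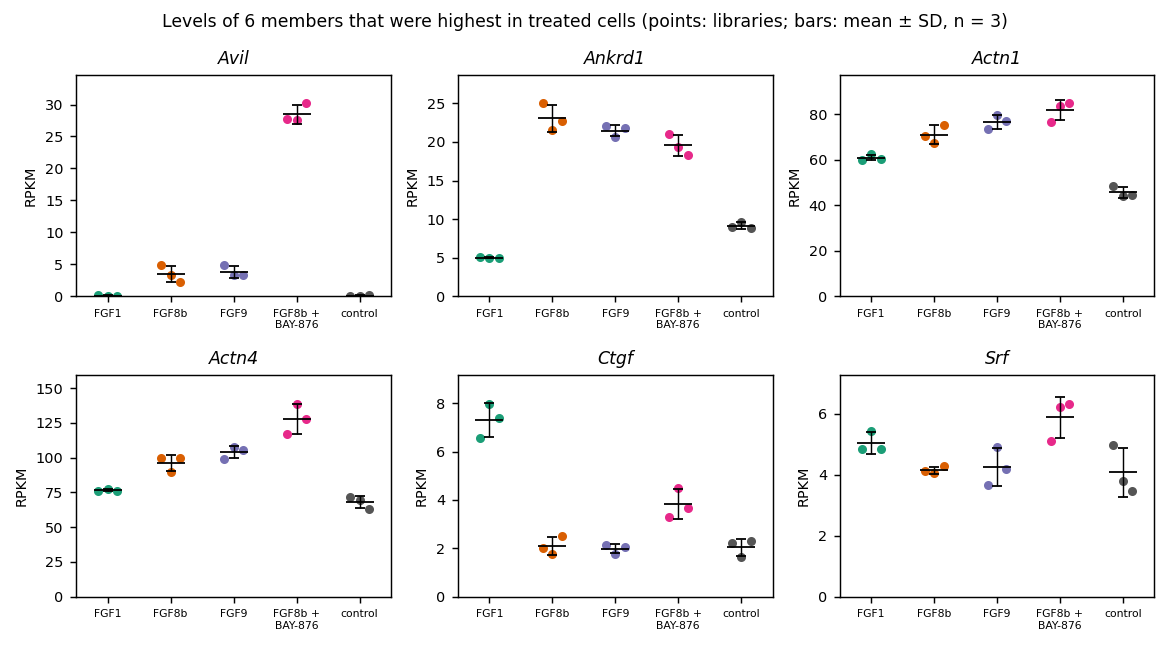
Levels in RPKM of Avil, Ankrd1, Actn1, Actn4, Ctgf and Srf by group, with a point for each library and bars for the mean ± SD (n = 3). Avil is highest with FGF8b plus BAY-876, Ankrd1 is lowest with FGF1, and Ctgf is highest with FGF1.

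The LIM-domain genes, many of whose proteins sit on stress fibres, moved in different directions. Fhl2, a cofactor that moves between adhesions and the nucleus, had 45.9, 46.4 and 46.0 RPKM in FGF1 libraries, 15.5, 13.2 and 16.1 RPKM in FGF8b libraries, 15.2, 15.6 and 15.1 RPKM in FGF9 libraries, 24.6, 24.5 and 24.3 RPKM in FGF8b plus BAY-876 libraries and 34.3, 30.3 and 30.6 RPKM in control libraries. FGF8b and FGF9 libraries overlapped each other, and the other groups were apart, with FGF1 highest. The log2 change was 0.54 ± 0.07 with FGF1 and -1.06 ± 0.07 with FGF8b (limma adjusted p = 1.39e-05 and 1.43e-09). Fhl1, a relative abundant in muscle, fell with FGF1 by 0.40 ± 0.09 and with FGF8b by 0.40 ± 0.09 on the log2 scale. Csrp1, which binds alpha-actinin, fell with FGF8b by 0.46 ± 0.08, and its FGF1 value was -0.13 ± 0.08. Pdlim5 and Pdlim7, PDZ and LIM scaffolds, rose with FGF1 by 0.32 ± 0.06 and 0.49 ± 0.14, and their FGF8b values were 0.10 ± 0.06 and -0.03 ± 0.14.

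The YAP targets Cyr61, Ctgf and Ankrd1 had different patterns. Cyr61, or Ccn1, a secreted matrix protein, had 30.6, 31.2 and 33.3 RPKM in FGF1 libraries, 4.61, 4.15 and 5.43 RPKM in FGF8b libraries, 5.25, 4.90 and 5.26 RPKM in FGF9 libraries, 8.201, 9.94 and 9.15 RPKM in FGF8b plus BAY-876 libraries and 24.5, 22.0 and 23.5 RPKM in control libraries. It was highest with FGF1, and all libraries with FGF8b or FGF9 were below control libraries. Against control, its log2 change was 0.43 ± 0.09 with FGF1, -2.20 ± 0.09 with FGF8b and -2.08 ± 0.09 with FGF9 (limma adjusted p = 1.21e-03, 6.07e-12 and 1.03e-11).

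Ctgf, or Ccn2, of the same protein family, had 6.56, 7.98 and 7.40 RPKM in FGF1 libraries, 2.03, 1.77 and 2.52 RPKM in FGF8b libraries, 2.15, 1.77 and 2.03 RPKM in FGF9 libraries, 3.29, 4.497 and 3.67 RPKM in FGF8b plus BAY-876 libraries and 2.20, 1.65 and 2.28 RPKM in control libraries. FGF1 libraries stood above all others, and FGF8b and FGF9 libraries overlapped control libraries. The log2 change was 1.62 ± 0.13 with FGF1 (limma adjusted p = 1.63e-07), and the FGF8b value of 0.03 ± 0.13 had a 95% interval from -0.25 to 0.32.

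Ankrd1, an ankyrin-repeat protein of the nucleus and the sarcomere, had 5.09, 4.99 and 4.92 RPKM in FGF1 libraries, 25.0, 21.5 and 22.7 RPKM in FGF8b libraries, 22.0, 20.6 and 21.7 RPKM in FGF9 libraries, 21.04, 19.4 and 18.3 RPKM in FGF8b plus BAY-876 libraries and 8.97, 9.68 and 8.80 RPKM in control libraries. FGF1 libraries were all below control libraries and those of the other groups all above. Against control, its log2 change was -0.81 ± 0.07 with FGF1, 1.29 ± 0.07 with FGF8b and 1.19 ± 0.07 with FGF9 (limma adjusted p = 2.14e-07, 1.84e-10 and 4.12e-10). Srf itself averaged 5.05 ± 0.347 RPKM in FGF1 libraries, 4.15 ± 0.119 RPKM in FGF8b libraries, 4.26 ± 0.630 RPKM in FGF9 libraries, 5.89 ± 0.684 RPKM in FGF8b plus BAY-876 libraries and 4.08 ± 0.802 RPKM in control libraries (SD, n = 3 each), and its values against control of 0.29 ± 0.12 with FGF1 and 0.04 ± 0.12 with FGF8b did not pass the test.

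FGF8b was set directly against FGF1, given at the same dose and time. Of the 36 genes, 5 were higher and 27 lower, where 59.9% of all genes tested were called, 33.3% higher and 26.6% lower. The median log2 difference was -0.58 for the 36 genes and 0.04 for all genes. By role, 5 of 5 actins, 4 of 5 myosin genes, 3 of 4 tropomyosins and 6 of 7 thin filament binding genes were lower. The lower genes were led by Tagln at -3.20 ± 0.13, Acta2 at -2.80 ± 0.17, Myl9 at -2.74 ± 0.13, Cyr61 at -2.63 ± 0.09 and Fhl2 at -1.60 ± 0.07 (limma adjusted p from 1.05e-12 to 1.06e-09). The higher ones were Avil at 2.67 ± 0.18, Ankrd1 at 2.10 ± 0.07, Actn4 at 0.33 ± 0.07, Actn1 at 0.22 ± 0.06 and Tpm3 at 0.21 ± 0.06 (limma adjusted p from 7.49e-13 to 5.83e-03). Tagln2, Fhl1, Srf and Myh11 did not pass the test, and Fhl1 had a 95% interval from -0.19 to 0.19.

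**Figure D4:**
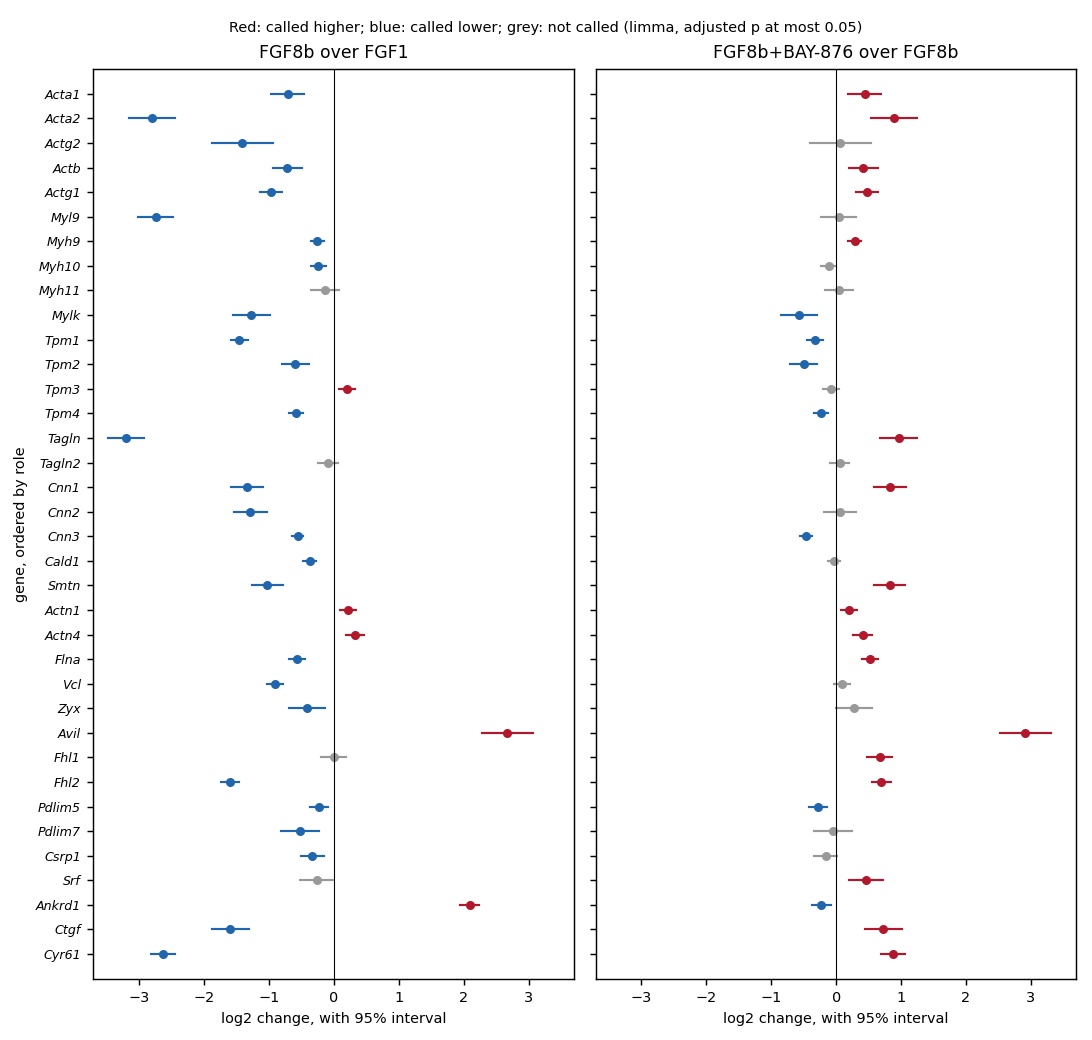
Log2 difference of the 36 tested genes with its 95% interval, FGF8b over FGF1 on the left and FGF8b plus BAY-876 over FGF8b on the right, on the same scale. On the left 27 genes are called lower (blue) and 5 higher (red), and on the right 17 are called higher and 7 lower.

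BAY-876 given with FGF8b was compared with FGF8b alone. Of the 36 genes, 17 were higher and 7 lower, where 57.3% of all genes tested were called, 22.5% higher and 34.8% lower. The median log2 difference was 0.15 for the 36 genes and -0.08 for all genes. Higher were 4 of 5 actins and 3 of 5 cross-linker and adhesion genes, and lower were 3 of 4 tropomyosins. Avil rose by 2.91 ± 0.18 (limma adjusted p = 3.40e-09), and its mean RPKM was 8.17 times that with FGF8b alone. On the other Avil row, the read ratio was 7.62 (exact 95% interval 7.12 to 8.15, counting error only). The FGF8b libraries had 433, 329 and 201 reads there, a spread that this interval does not cover. Next were Tagln at 0.96 ± 0.13, Acta2 at 0.89 ± 0.17, Cyr61 at 0.88 ± 0.09, Cnn1 at 0.83 ± 0.12 and Smtn at 0.82 ± 0.11 (limma adjusted p from 6.02e-07 to 3.22e-04). The library of replicate 2 was the highest of the BAY-876 group for Acta2 and Tagln, and without it their differences were 0.60 and 0.74, both still past the test.

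Myl9, which had fallen with FGF8b, had a difference with BAY-876 of 0.04 ± 0.13, with a 95% interval from -0.23 to 0.31. Lower with the inhibitor were Mylk at -0.57 ± 0.13, Tpm2 at -0.50 ± 0.10, Cnn3 at -0.46 ± 0.04, Tpm1 at -0.32 ± 0.06 and Pdlim5 at -0.28 ± 0.06 (limma adjusted p from 2.21e-07 to 1.72e-03). The Mylk difference was -0.94 with a pseudocount of 0.1 and -0.36 on its RefSeq row. Flna, Srf and Actn4 rose by 0.52 ± 0.06, 0.45 ± 0.12 and 0.41 ± 0.07. Set against control cells, 13 of 36 genes with FGF8b plus BAY-876 were higher and 15 lower, where 72.7% of all genes tested were called, 36.8% higher and 35.9% lower. The medians were -0.06 for the 36 genes and 0.01 for all genes. Lower there were Myl9 at -2.44 ± 0.13, Mylk at -1.99 ± 0.13, Tagln at -1.67 ± 0.13, Cyr61 at -1.32 ± 0.09 and Tpm1 at -1.25 ± 0.06 (limma adjusted p from 2.41e-11 to 1.28e-08). Acta2 was lower at -0.93 ± 0.17. Higher were Avil at 5.57 ± 0.18, Ankrd1 at 1.06 ± 0.07, Actn4 at 0.91 ± 0.07, Actn1 at 0.83 ± 0.06 and Ctgf at 0.76 ± 0.13 (limma adjusted p from 3.16e-13 to 9.74e-05). Actb, Flna, Myh9 and Actg1 were higher too, by 0.38 ± 0.10, 0.38 ± 0.06, 0.33 ± 0.05 and 0.24 ± 0.08. Avil had a ratio of mean RPKM of 258. On the other Avil row, the read ratio to control was 201 (exact 95% interval 147 to 281, counting error only). Cnn1 and Smtn, at 0.16 ± 0.12 and -0.13 ± 0.11, did not pass the test against control. FGF8b plus BAY-876 libraries also had the lowest preadipocyte marker sum. Of these 10 markers, 0 were higher and 10 lower against control, and 1 was higher and 8 lower against FGF8b alone. Of 5 tested smooth muscle and pericyte markers, 3 were higher and 1 lower against control, and 1 higher and 3 lower against FGF8b alone. Among all genes, 22.5% were higher and 34.8% lower against FGF8b alone. The part of these markers in the differences was not tested.

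With FGF9 against FGF8b, 0 of the 36 genes were called by limma, where 0.296% of all genes tested were called, 0.202% higher and 0.0937% lower. At an unadjusted p under 0.05 there were 2, Myh9 and Tpm1, against 7.04% of all genes, and the smallest adjusted p of the 36 was 0.467. The 95% intervals of the log2 differences lay between -0.43, the lower bound of Acta2, and 0.71, the upper bound of Actg2, and 32 of 36 lay within 0.5 on both sides of 0.

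Genes upstream of SRF and YAP, and other targets, were counted from pathway lists with the genes above left out. Among all genes tested, 19.3% were higher and 15.1% lower with FGF1, and 37.8% were higher and 26.6% lower with FGF8b. Of 10 tested SRF coactivators and partners, 2 were higher and 1 lower with FGF1, and 3 were higher and 2 lower with FGF8b, each against control. Mical2, an actin oxidase that promotes MRTF activity, rose in both, by 0.84 ± 0.09 with FGF1 and 0.85 ± 0.09 with FGF8b. Gata6, a GATA-family transcription factor, averaged 0.832 ± 0.262 RPKM in FGF8b libraries and 2.79 ± 0.207 RPKM in control libraries and fell with FGF8b by 1.32 ± 0.13 (limma adjusted p = 1.88e-07). Mkl2, an MRTF, averaged 2.98 ± 0.289 RPKM in FGF8b libraries and 4.34 ± 0.142 RPKM in control libraries and fell with FGF8b by 0.48 ± 0.10 (limma adjusted p = 3.83e-04). Of 22 tested Hippo-YAP genes, 5 were higher and 2 lower with FGF1, and 9 were higher and 8 lower with FGF8b, each against control. Wwtr1, which encodes TAZ, averaged 48.7 ± 2.14 RPKM in FGF8b libraries and 23.0 ± 3.26 RPKM in control libraries and rose with FGF8b by 1.08 ± 0.09 (limma adjusted p = 5.71e-08). Amotl2, an angiomotin that binds YAP, averaged 5.07 ± 0.507 RPKM in FGF8b libraries and 33.9 ± 4.31 RPKM in control libraries and fell with FGF8b by 2.62 ± 0.10 (limma adjusted p = 3.77e-12).

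Of 17 tested other YAP targets, 5 were higher and 7 lower with FGF1, and 3 were higher and 10 lower with FGF8b, each against control, with medians of 0.07 and -0.45 on the log2 scale, against 0.02 and 0.08 for all genes. Ccdc80, a secreted matrix protein, fell with FGF8b by 3.25 ± 0.10, and Gadd45a, a stress gene, rose by 2.94 ± 0.07 (limma adjusted p = 3.22e-13 and 1.48e-14). With BAY-876 against FGF8b alone, 9 of them were higher and 6 lower, where 22.5% of all genes were higher and 34.8% lower. Of 42 tested focal adhesion and stress fibre linkers, 16 were higher and 6 lower with FGF1, and 16 were higher and 20 lower with FGF8b, each against control, where 37.8% of all genes were higher and 26.6% lower with FGF8b. Parvb, a parvin of integrin adhesions, rose with FGF1 by 1.07 ± 0.12 and with FGF8b by 2.60 ± 0.12 (limma adjusted p = 4.23e-06 and 3.16e-11). Gsn, gelsolin, which severs filaments, averaged 269 ± 1.24 RPKM in FGF1 libraries, 100.01 ± 9.09 RPKM in FGF8b libraries and 653 ± 49.3 RPKM in control libraries and fell with both (limma adjusted p = 3.04e-08 and 6.14e-13). Palld, palladin, a stress fibre scaffold, fell with FGF8b by 1.99 ± 0.08 (limma adjusted p = 8.70e-12).

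The promoter matches were set beside the calls of the tested members. With FGF8b against FGF1 there were 0 higher and 6 lower of 8 with a CArG box, 2 higher and 10 lower of 13 with the TEAD motif and 3 higher and 9 lower of 12 with neither, where 33.3% of all genes were higher and 26.6% lower. With FGF8b against control cells there were 0 higher and 6 lower of 8 with a CArG box, 3 higher and 7 lower of 13 with the TEAD motif and 3 higher and 3 lower of 12 with neither, where 37.8% of all genes were higher and 26.6% lower. For FGF9 against control cells, 0 were higher and 6 lower with a CArG box, and 4 higher and 6 lower with the TEAD motif. Those with neither gave 4 higher and 3 lower, where 38.7% of all genes were higher and 27% lower. With BAY-876 against FGF8b alone there were 5 higher and 0 lower of 8 with a CArG box, 6 higher and 3 lower of 13 with the TEAD motif and 4 higher and 4 lower of 12 with neither, where 22.5% of all genes were higher and 34.8% lower. For FGF1 against control cells, 5 were higher and 1 lower of 8 with a CArG box, and 9 higher and 1 lower of 13 with the TEAD motif. Of 12 with neither, 10 were higher and 0 lower, where 19.3% of all genes were higher and 15.1% lower. For FGF8b plus BAY-876 against control cells, CArG genes gave 3 higher and 4 lower, TEAD genes 4 and 5, and those with neither 4 and 5. Among all genes there, 36.8% were higher and 35.9% lower. Genes with both motifs count under each. Under the strict CArG pattern, Acta2 counts with the TEAD motif alone, and Tagln, which has no window, counts in none. These are counts over few genes measured in the same libraries, and no test was made of them.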

How the data were processed

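Libraries were made from total RNA with the TruSeq RNA kit v2, per the labels' protocols, and the authors deposited 1 table of 168326 transcript lines in 15 sample columns, with a decimal comma. No unit is named. Low values of Ensembl transcripts of known length were whole multiples of 1 read for 94.3% to 95.2% (tolerance 0.05 read, where chance gives 10%), so the deposited values are taken as RPKM, from 27.004 to 42.644 M reads per library. CASAVA and bcl2fastq are named in the submitters' processing notes. The sources used here do not give the aligner, build or strand setting.

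Each symbol kept its row of highest mean. limma 3.58.1 (R 4.3.3) with empirical Bayes and a mean-variance trend was fitted to log2(RPKM + 0.5) in all 15 libraries (10 residual degrees of freedom), for 13869 genes passing 0.5 RPKM in 3 libraries, and p was adjusted over all of them by Benjamini-Hochberg. The fit was tested on simulated data. Reads of low genes, recovered from the RPKM steps, gave exact 95% intervals of ratios (counting error only). For Mylk, Cnn1 and Lmod1 the length was inferred as the smallest that gave whole reads, so their true reads could be a multiple. Promoters are RefSeq's on GRCm38.p6, and gene overlaps are from GENCODE M21, which may not be the table's annotation.

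Members and gene lists were chosen with earlier results of these data known. The log2 change and SE are given for up to 5 called members per direction and comparison whose groups of libraries did not overlap. These were ranked by absolute log2 change, and the adjusted p is not printed for all of them. Pathway genes were named likewise, up to 3. Other members were named to account for all 38. The result of 1 pathway list is not reported here. Alternatives were pseudocounts of 0.1 and 1, no filter, median centring, trimmed-mean scaling (chosen after seeing the data), RefSeq rows, a fit over the compared groups, a replicate block and leaving out each library.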

Additional observations from a re-analysis of the deposited data

How the results depend on the processing

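Of 158 calls of a member in a comparison, 14 were lost under at least 1 of 23 alternatives and 0 reversed. The losses involved Actg1, Actg2, Ankrd1, Fhl1, Flna, Myh10, Myh9, Pdlim5, Pdlim7, Tpm4 and Zyx. Counts of members called stayed within 1.5 times in every alternative run. For FGF8b plus BAY-876 against control, median centring gave 15 members higher and 13 lower, where the fit reported gave 13 higher and 15 lower. Over all genes, trimmed-mean scaling gave 2256 higher and 2394 lower with FGF1 (2677 and 2095 in the fit reported), 4427 higher and 4275 lower with FGF8b (5238 and 3693) and 4498 higher and 4352 lower with FGF9 (5369 and 3739), each against control, and 3873 higher and 4066 lower with BAY-876 against FGF8b (3117 and 4824). Low levels limit Actg2, Cnn1, Avil and Mylk, whose fitted changes moved over 1.5 times with the pseudocount in at least 1 comparison, and Mylk also with the transcript row, all in the same direction.

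FGF9 against FGF8b over all genes, 28 higher and 13 lower as reported, gave 17 higher with a pseudocount of 0.1, 8 lower with no filter on low values, 52 higher with RefSeq rows only, 0 higher with a fit over the 2 groups only and 0 lower with a fit over the 2 groups only. Leaving out 1 library gave 4 to 31 higher and 2 to 13 lower, and the cause was not tested.

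With the replicate number as a block, the same 27, 23, 24, 24, 28, 32 and 0 members were called in the 7 comparisons. Of 30 pairs of libraries with the same number, 11 correlated over 0.1 in their deviations, with a range from -0.443 to 0.534. In every other group, 2 of 15 libraries correlated most with the library of their own number. Whether the numbers mark pairs was not settled by these values.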
